A study of Homo sapiens with 6 samples.

Results

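Complement is a cascade of plasma proteins that marks microbes and damaged cells for clearance and can end in lysis of the target membrane. C3 is its central component, and factor B joins cleaved C3 to form the enzyme of the alternative pathway. Host cells restrain the cascade at their surface with CD46, CD55 and CD59, and in fluid with C4b-binding protein, factor I and clusterin. Epithelia of the gut and their tumours are known to make several of these proteins themselves.

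The 9 genes described here are CD46, CD55, CD59, C4BPA, C4BPB, CFI, CLU, C3 and CFB, out of 58735 genes in the table. They were chosen by gene name from complement components and regulators made by epithelial cells, with the expression values of these same 6 libraries known, so the difference between the groups is part of how they were selected. Their values are therefore given as a description, with no test. All 9 were found by symbol. A mean of at least 1 FPKM (fragments per kilobase of gene length, scaled to library size) over the 6 libraries was reached by 6 of them. C4BPA, CFI and CFB stayed below it. Lengths are those listed for each gene, and the transcripts in use were not measured, so levels of different genes compare only roughly.

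All 6 libraries are labelled as RNA of SW480, a line derived from a human colorectal adenocarcinoma and grown in Leibovitz's L-15 medium with serum. Of the 6 libraries, 3 are labelled DDX39B overexpression (called OE) and 3 are controls (called CT), with WT as their genotype. The sources used here name no construct, promoter or clone, and do not say whether replicates came from separate cultures. The p-values below therefore measure only the spread between these libraries, which may be technical. In bulk RNA, fewer cells of a type and less RNA per cell cannot be told apart.

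The libraries held 16963075 to 17463697 reads. The targeted gene goes against the label: DDX39B, an RNA helicase of mRNA splicing and export, averaged 14.3 ± 0.623 FPKM in the libraries labelled overexpression and 38.6 ± 3.68 FPKM in those labelled control (SD, n = 3 each; log2 fold change -1.37, limma adjusted p = 6.93e-06). DCLK1, a kinase gene named in the title of the series, had 10081 reads in the OE and 36 in the CT group. Groups are called by label below, and each direction is drawn from the labels as they stand. Log2 values correlated at 0.991 within the OE-labelled group, at 0.974 to 0.988 within the CT-labelled group and at 0.676 to 0.685 between them, with library CT3 the farthest from its group. Of 12 colon epithelial markers, 7 reached 1 FPKM in the OE-labelled and 3 in the CT-labelled libraries, with sums of 1972 to 1996 and 358 to 430 FPKM. EPCAM averaged 171 and 2.72 FPKM, the intestinal factor CDX2 had 1059 and 0 reads, and CDX1 had 0 reads in all 6 libraries. KRT20 went the other way, with 6 and 80 reads. Whether both groups are the same cells was not tested, and a difference between lines and an effect of DDX39B cannot be told apart in any fold below.

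Of the 9 genes, 4 lie in the cluster of complement regulators on the long arm of chromosome 1. In the coordinates of the table, which are those of GRCh38, the cluster runs over 706.7 kb from C4BPB (chromosome 1, 207088842 to 207099993, plus strand) through C4BPA (207104262 to 207144972) and CD55 (207321376 to 207386804) to CD46 (207752057 to 207795513). The others lie apart, among them CD59 on chromosome 11 (33703010 to 33736491, minus strand), CFI on chromosome 4 (109740694 to 109802179, minus strand), CFB on chromosome 6 (31945650 to 31952084, plus strand) and C3 on chromosome 19 (6677704 to 6730562, minus strand). RefSeq promoter windows were matched for 7 of the 9 genes. The promoter windows of these 4 genes are shown because all 4 transcripts were lower under the OE label, each by a different amount. Sequences are those of RefSeq on GRCh38.p14, 250 bases before to 50 bases after the most upstream start annotated in RefSeq. For CD55 the whole window (207321428 to 207321727) lies after the gene start of the table, 207321376. Capitals mark matches, on either strand, to the STAT element (TTCNNNGAA), an HNF1 half-site (GTTAAT), the CCAAT box, the TATA box (letters TATAAA), the GC box (letters GGGCGG) or a CRE half-site (letters TGACG). No match overlapped another.
C4BPB, chr1:207088610-207088909: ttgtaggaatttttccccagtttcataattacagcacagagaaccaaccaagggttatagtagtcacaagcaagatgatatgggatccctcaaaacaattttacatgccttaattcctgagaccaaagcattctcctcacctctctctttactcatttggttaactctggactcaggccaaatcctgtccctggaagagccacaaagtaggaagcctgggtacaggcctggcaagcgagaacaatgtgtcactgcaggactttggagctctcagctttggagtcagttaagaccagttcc
C4BPA, chr1:207103983-207104282: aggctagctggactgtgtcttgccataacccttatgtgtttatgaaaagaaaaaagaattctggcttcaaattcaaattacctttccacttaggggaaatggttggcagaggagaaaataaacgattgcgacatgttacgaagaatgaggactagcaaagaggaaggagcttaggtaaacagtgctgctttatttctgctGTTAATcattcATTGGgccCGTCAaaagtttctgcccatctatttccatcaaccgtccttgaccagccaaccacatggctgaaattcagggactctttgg
CD55, chr1:207321428-207321727: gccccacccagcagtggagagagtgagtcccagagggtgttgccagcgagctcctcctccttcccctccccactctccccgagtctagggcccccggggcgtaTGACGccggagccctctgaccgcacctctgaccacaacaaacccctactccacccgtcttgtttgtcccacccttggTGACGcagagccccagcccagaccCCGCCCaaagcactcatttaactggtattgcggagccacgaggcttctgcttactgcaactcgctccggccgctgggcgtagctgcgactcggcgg
CD46, chr1:207751788-207752087: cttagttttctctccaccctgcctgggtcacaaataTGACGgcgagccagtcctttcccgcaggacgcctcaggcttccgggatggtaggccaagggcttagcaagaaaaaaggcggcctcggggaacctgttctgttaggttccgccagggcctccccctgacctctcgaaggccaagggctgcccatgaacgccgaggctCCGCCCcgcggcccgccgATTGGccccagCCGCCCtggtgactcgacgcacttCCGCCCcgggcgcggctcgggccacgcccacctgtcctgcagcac

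The windows fall into 2 kinds. Those of C4BPB and C4BPA had 45.3% and 42.3% G or C and held 1 and 5 CpG dinucleotides, whereas those of CD55 and CD46 had 65.0% and 67.0% G or C and held 19 and 25. Over all 35116 promoter windows of the same length, the median G or C content was 58.7%. C4BPB has 3 annotated windows and CD46 has 2, and only the most upstream of each was searched. The C4BPB window shown held none of the 6 motifs. The C4BPA window held 1 HNF1 half-site, present in 6.88% of all windows, 1 CCAAT box (34.6%) and 1 CRE half-site (24.6%). The CD55 window held 1 GC box (in 15786 of all windows) and 2 CRE half-sites, and the CD46 window 3 GC boxes, 1 CCAAT box and 1 CRE half-site. The STAT element (7.66% of windows) and the TATA box (11.5%) matched in none of the 4. A match is only a run of letters, and which start these cells use was not measured.

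For each of the 9 genes the OE-labelled libraries lay wholly on one side of the CT-labelled ones, 7 below and 2 above. Among the 33913 genes with a read in any library, 52.7% had groups that did not overlap. As the 9 were picked with these values known, their count is a description. Together they took 12211 to 12484 reads per OE-labelled and 50222 to 53364 reads per CT-labelled library.

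**Figure D1:**
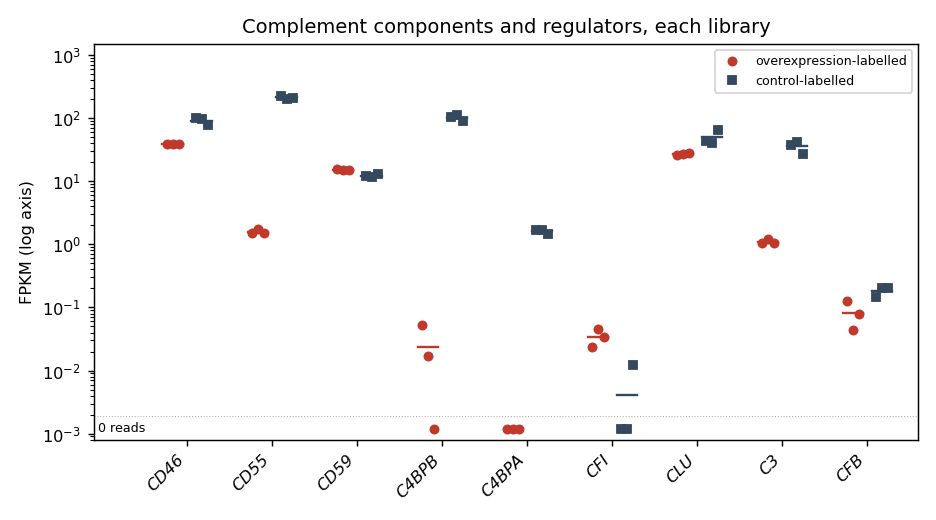
FPKM of the 9 complement genes on a log axis, with a point for each library, circles for libraries labelled overexpression and squares for those labelled control, bars at group means, and 0 reads drawn below the dotted line. CD55, C4BPB and C3 sit far lower under the OE label, and CD59 and CFI higher.

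CD46, CD55 and CD59 guard the surface of host cells. CD55, or decay-accelerating factor, takes apart the convertases that cleave C3 and C5 and is held in the membrane by a GPI anchor. It measured 1.497, 1.733 and 1.507 FPKM in the OE-labelled libraries and 227.5, 202.7 and 209.0 FPKM in the CT-labelled libraries. Every CT-labelled library was thus above every OE-labelled one, with narrow spread in both groups. The mean was 135-fold lower under the OE label, at 1.58 ± 0.134 FPKM against 213 ± 12.9 FPKM under the CT label (SD, n = 3 libraries per group, as for all values with ± here), from 500 and 62782 reads. Among protein-coding genes, CD55 ranked 10174 of 16433 detected under the OE label and 123 of 15861 in the controls.

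CD46, or membrane cofactor protein, is the transmembrane cofactor with which factor I cuts C3b and C4b. It measured 39.1, 38.4 and 38.9 FPKM in the OE-labelled and 98.9, 96.97 and 78.2 FPKM in the CT-labelled libraries. The groups were apart, and library CT3 was the lowest of its group. The means of 38.8 ± 0.348 and 91.3 ± 11.4 FPKM gave a level 2.36-fold lower under the OE label, or 2.53-fold lower without library CT3.

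CD59, or protectin, is GPI-anchored like CD55 and blocks the insertion of C9 into the lytic pore. It measured 15.77, 14.87 and 14.86 FPKM in the OE-labelled and 11.98, 11.69 and 12.97 FPKM in the CT-labelled libraries. It was the only membrane regulator of the 3 that was higher under the OE label, by 1.24-fold. The gap between the groups was small, as the means were 15.2 ± 0.523 and 12.2 ± 0.670 FPKM, and its sign was the same under all scalings tried.

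The order of the membrane regulators within a library differed between the groups, which does not depend on the scaling between libraries. CD46 came before CD59 and CD55 in each OE-labelled library, whereas CD55 came before CD46 and CD59 in each CT-labelled library. CD55 made up 2.66% to 3.15% of their summed FPKM under the OE label and 65.1% to 69.6% in the controls. CD59 made up 26.9% to 28.0% and 3.54% to 4.32%. The sum itself was 54.99 to 56.3 FPKM and 300.1 to 338 FPKM.

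**Figure D2:**
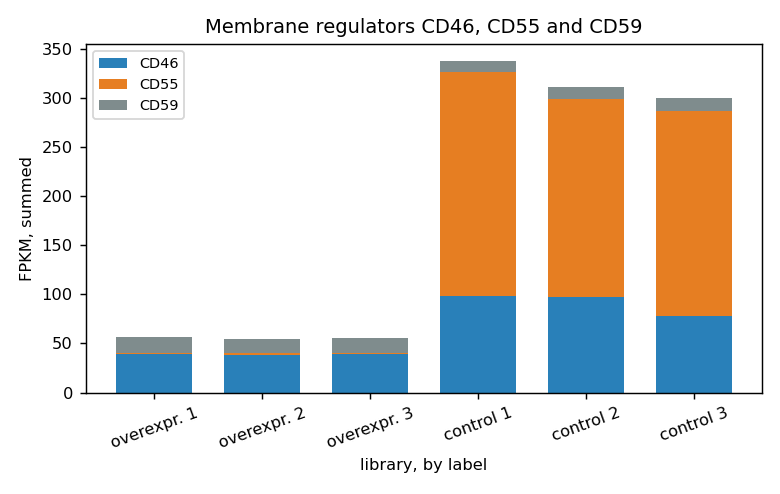
Stacked FPKM of CD46, CD55 and CD59 in each library, OE-labelled on the left and CT-labelled on the right. The CD55 segment is barely visible in the OE-labelled bars (1.497 to 1.733 FPKM) and is the largest in each CT-labelled bar (202.7 to 227.5 FPKM).

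Among the regulators released into fluid, C4b-binding protein is a cofactor of factor I against C4b, built from alpha chains (C4BPA) and a beta chain (C4BPB) that carries protein S. C4BPB had 3, 1 and 0 reads in the OE-labelled libraries, or 0.0529, 0.0172 and 0 FPKM. In the CT-labelled libraries it had 5498, 6043 and 4923 reads, or 104.8, 111.2 and 91.4 FPKM. The transcript was thus close to undetected under the OE label and ranked 293 among coding genes in the controls. The ratio of the means was 4388-fold (lower under the OE label), with a 95% counting interval of 1725 to 16210 that covers counting error only.

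C4BPA had 0 reads in all 3 OE-labelled libraries and 67, 70 and 59 reads in the CT-labelled libraries, where it measured 1.68, 1.70 and 1.44 FPKM. Against a floor of 3 reads over the OE-labelled group (0.0230 FPKM), it was at least 70.1-fold lower there. The 2 chains were far from equal per length: C4BPB exceeded C4BPA by 62.2, 65.5 and 63.3-fold in CT-labelled libraries 1, 2 and 3. With no C4BPA read, that ratio could not be given for the OE-labelled libraries.

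CFI encodes factor I, the protease that inactivates C3b and C4b. It was near the limit of detection throughout, with 2, 4 and 3 reads in the OE-labelled and 0, 0 and 1 read in the CT-labelled libraries. Its means were 0.0344 and 0.00409 FPKM, and the ratio of 8.41 (higher under the OE label) had a 95% counting interval of 1.16 to 368. A level of 3 reads over a group was worth 0.0115 and 0.0123 FPKM.

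CLU encodes clusterin, a secreted chaperone that binds the terminal complex and keeps it from membranes. It measured 25.8, 27.5 and 27.6 FPKM in the OE-labelled and 43.9, 40.5 and 64.5 FPKM in the CT-labelled libraries. The groups were apart, but library CT3 stood well above the other two. The means of 26.96 ± 1.04 and 49.7 ± 12.98 FPKM gave a 1.84-fold lower level under the OE label, or 1.57-fold without library CT3. It remained an abundant transcript in both groups, at ranks 1510 and 763 among coding genes.

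Of the components, C3 measured 1.05, 1.20 and 1.06 FPKM in the OE-labelled and 37.5, 42.2 and 27.1 FPKM in the CT-labelled libraries. All controls were above all others, and CT3 was the lowest control. The means of 1.10 ± 0.0873 and 35.6 ± 7.74 FPKM, from 492 and 14804 reads, differed 32.3-fold, or 36.2-fold without library CT3. The ratio of CLU to C3 was 22.9 to 26.2 in the OE-labelled libraries and 0.960 to 2.38 in the CT-labelled libraries, with C3 the higher of the pair in CT2.

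CFB encodes factor B, the protease partner of C3b. It had 11, 4 and 7 reads in the OE-labelled libraries (0.125, 0.0443 and 0.0784 FPKM) and 12, 17 and 17 reads in the CT-labelled libraries (0.147, 0.202 and 0.203 FPKM). It was low in all 6 libraries, and the 2.23-fold lower mean under the OE label had a counting interval of 1.32 to 3.92. In the annotation CFB overlaps C2 on the same strand only at its first bases. Another coding entry of that strand, AL645922.1 (31927698 to 31952048), covers nearly all of CFB and had 0 reads in all 6 libraries. How reads shared by overlapping genes were counted is not stated, so the level of CFB may be understated in every library. C3 exceeded CFB by 8.40 to 27.2-fold under the OE label and by 133 to 254-fold in the controls.

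Ordered by mean, the OE-labelled libraries gave CD46, CLU, CD59, CD55, C3, CFB, CFI, C4BPB and C4BPA. From CD46 to CFB each gene lay above the next in all 3 libraries, while the ranges of CFB and CFI, of CFI and C4BPB, and of C4BPB and C4BPA met. The CT-labelled libraries gave CD55, C4BPB, CD46, CLU, C3, CD59, C4BPA, CFB and CFI. There the ranges of C4BPB and CD46 overlapped, as did those of CLU and C3. The spread also differed: the coefficient of variation in the controls was 26.1% for CLU and 21.7% for C3 against 6.05% for CD55, and in the OE-labelled libraries it was 3.85%, 7.92% and 8.47% for these 3 genes.

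For each of the 6 better expressed genes, the coding genes nearest in level over the 6 libraries were sought by Euclidean distance on log2(FPKM + 1) among 11307 genes. CD46 lay closest to SERBP1 (distance 0.155, at 40.9 and 90.1 FPKM), CD59 to ERCC1 (0.116, at 15.03 and 11.7 FPKM), and CLU to SURF2 (0.304, at 26.4 and 46.7 FPKM), with the OE-labelled mean first. C4BPB lay closest to SMOC1 (0.203), with 0.00849 and 106.9 FPKM. CD55 and C3 had no such near match, their closest genes being KRT17 (1.02) and PALLD (0.727).

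Most of the rest of the cascade was little expressed or not detected. Of 51 other complement genes, 16 had 0 reads in all 6 libraries, among them the C1q chain genes C1QA, C1QB and C1QC, and the terminal components C6, C7, C8A and C8B. A further 23 had reads but stayed under 1 FPKM in both groups. The remaining 12 reached 1 FPKM in a group, and 6 of them reached it over all libraries and were tested. By limma with Benjamini-Hochberg adjustment over all genes, 4 of these 6 fell and 1 rose under the OE label. Over all 13972 genes tested, 76.8% passed the same threshold, 37.5% higher and 39.3% lower, so the share of the list is near the background. The list had a median log2 fold change of -1.30, against -0.03 over all genes. It was -0.60, -0.55 and -0.71 without CT1, CT2 and CT3. FPKM scaled to the summed reads gave -0.55 and TPM gave -0.81. All of these settings had more genes past the filter. A pseudocount of 0.1 gave -1.95 and voom gave -1.87. With no filter on low values the median was -0.008 over 35 genes, against 0.015 over all genes. Of those 35, 23 were under 1 FPKM in both groups, where the scale understates changes. The size of the shift thus depends on the filter. Leaving out any OE-labelled library brought C5AR1, C5AR2 and VTN above the filter and gave 7 lower and 1 higher of 9. Scaling FPKM to the summed reads instead, the split was 4 lower and 3 higher of 7, C1QBP and COLEC11 being added to the higher side. TPM gave 8 lower and 4 higher of 15, and quantile scaling and voom each gave 4 lower and 2 higher of 6.

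CFD, which encodes factor D, the protease that cleaves factor B, fell the most of the 6 on the log2(FPKM + 1) scale, though C1R and C1S had larger ratios of means. It measured 5.57, 5.93 and 5.04 FPKM in the OE-labelled and 49.2, 48.3 and 40.0 FPKM in the CT-labelled libraries (log2 fold change -2.84, SE 0.0966, limma adjusted p = 6.25e-07). In both groups CFD was above C3 per length, by 4.78 to 5.31-fold and by 1.14 to 1.48-fold. C1R and C1S, the proteases of the C1 complex, averaged 0.301 and 0.416 FPKM in the OE-labelled and 4.16 and 5.43 FPKM in the CT-labelled libraries. They were 13.8-fold and 13.1-fold lower under the OE label. No p is given for them, as both passed the filter only through the CT-labelled libraries. COLEC11 and SUSD4, at 1.95 and 1.62 FPKM under the OE label, missed it, so the split of the 6 tested genes depends in part on the filter. C5, the source of the C5a peptide and the start of the lytic complex, averaged 1.54 ± 0.0928 and 2.92 ± 0.439 FPKM (limma adjusted p = 0.0011).

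C1RL, a protease gene related to C1R, went the other way, at 5.93 ± 0.300 FPKM in the OE-labelled and 2.68 ± 0.335 FPKM in the CT-labelled libraries (limma adjusted p = 7.09e-05). C1QBP, whose product binds the globular heads of C1q and resides largely in mitochondria, averaged 88.6 ± 1.03 and 79.1 ± 6.52 FPKM and did not pass (limma adjusted p = 0.0603), though it was called higher with recomputed FPKM, quantile scaling and voom, and without library CT2. Leaving out any CT-labelled library brought COLEC11 above the filter, where it was called higher. Below the filter, SUSD4, a membrane inhibitor, had 409 and 0 reads, and COLEC11, a recognition molecule of the lectin pathway, had 290 and 5 reads. VTN, which encodes vitronectin, had 7 and 207 reads, and C5AR2, a receptor of C5a, had 4 and 575 reads. C5AR1, the other C5a receptor, averaged 0.633 and 1.37 FPKM, and ITGB2, the beta chain of the integrin complement receptors, 0.137 and 1.06 FPKM. C4A and C4B are near-identical, so their 25 and 9 reads in the OE-labelled and 125 and 183 reads in the CT-labelled libraries cannot be assigned to either with certainty.

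**Figure D3:**
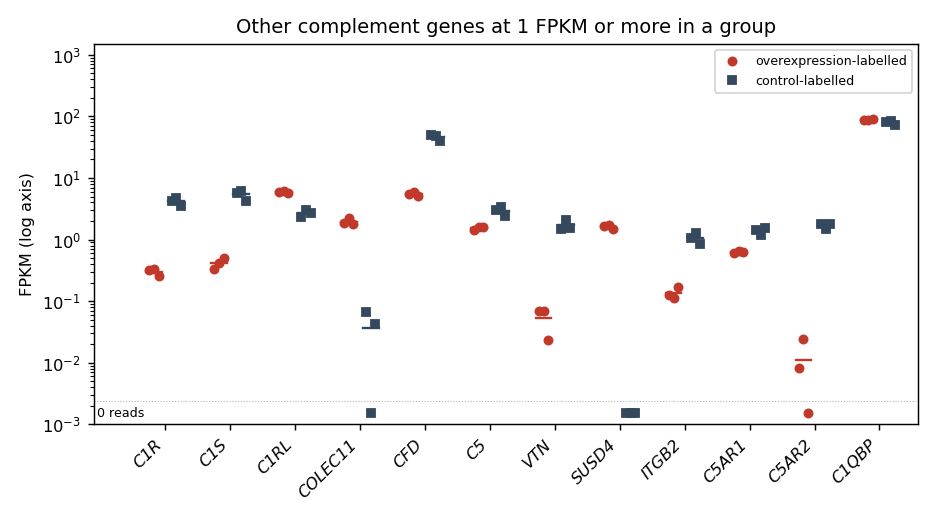
FPKM on a log axis of the 12 other complement genes that reached 1 FPKM in a group, drawn as circles for libraries labelled overexpression and squares for those labelled control, with 0 reads below the dotted line. CFD, C1R and C1S are lower and C1RL, COLEC11 and SUSD4 higher under the OE label, while the C1QBP means are 88.6 and 79.1 FPKM.

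CD55 and CD59 are held by GPI anchors, and the genes that build and remodel the anchor moved both ways. Of 27 tested, 14 rose, 10 fell and 3 did not pass, where 76.8% of all genes tested passed (37.5% higher, 39.3% lower). Their median log2 fold change was 0.39, against -0.03 over all genes. PIGX and PIGW, which act in the synthesis of the lipid-linked glycan, were 4.99-fold and 3.61-fold higher (log2 fold changes 1.97 and 1.65, limma adjusted p = 9.34e-06 and 1.54e-05). PIGL was 3.16-fold higher and PIGB 3.84-fold lower. Genes of other GPI-anchored proteins had 8 higher and 18 lower of 28 tested, beside the same 37.5% higher and 39.3% lower over all genes, with a median of -1.01 against -0.03. Among these the folate receptor gene FOLR1 fell to 7.25 FPKM in the OE-labelled libraries, against 690 FPKM in the CT-labelled ones. ALPL and ALPI, alkaline phosphatases, averaged 0.112 and 0.0852 FPKM, against 219 and 93.1 FPKM. Among the 8 that rose, NT5E averaged 25.8 FPKM in the OE-labelled and 0.98 FPKM in the CT-labelled libraries, and GPC4 had 1765 and 0 reads. ALPL, ALPI, NT5E and GPC4 passed the filter only through the group where they were high. With no filter on low values, 10 were higher and 21 lower of 42 genes of other GPI-anchored proteins. Their median was then -0.14, against 0.015 over all genes.

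Complement genes are known to respond to interleukin-6 family cytokines, interferons and NF-kB, and C/EBP and hepatocyte nuclear factors act on several of their promoters. Of 18 tested genes of these routes, 6 rose, 11 fell and 1 (NFKB2) did not pass. Over all genes tested, 76.8% passed, 37.5% higher and 39.3% lower. The median of the 18 was -0.45, against -0.03 over all genes. With no filter on low values it was -0.32 over 23 genes, against 0.015 over all genes. OSMR, the oncostatin M receptor gene, had 6 reads in the OE-labelled and 4847 reads in the CT-labelled libraries. SOCS3, the feedback inhibitor of STAT3, averaged 5.27 ± 0.159 and 31.9 ± 4.51 FPKM (log2 fold change -2.39, limma adjusted p = 1.49e-06). CEBPA and CEBPB were 7.91-fold and 4.42-fold lower. HNF4A, named after its values were seen as the largest on the higher side, averaged 5.74 ± 0.0966 and 0.703 ± 0.321 FPKM. OSMR and HNF4A passed the filter only through the group where they were high. Whether any of these differences bears on the 9 complement genes was not tested.

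**Figure D4:**
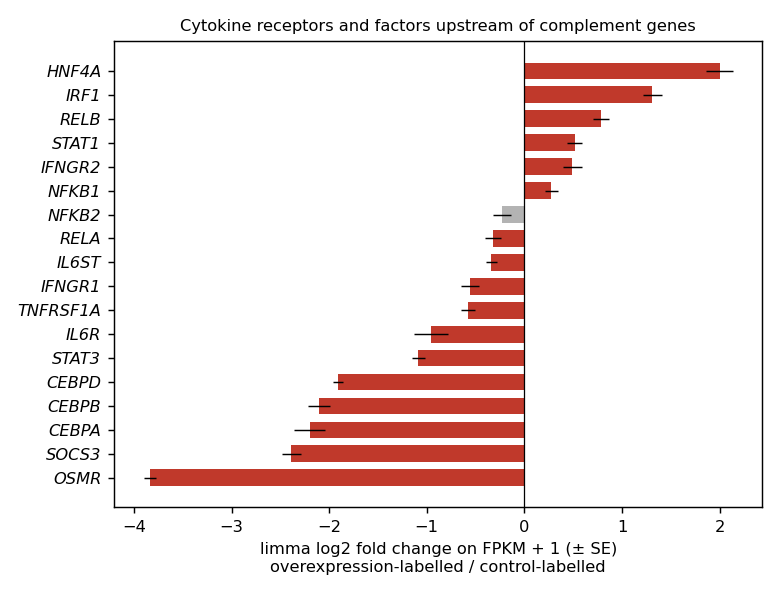
Limma log2 fold change on log2(FPKM + 1), with SE, of the 18 tested cytokine receptor and transcription factor genes, OE-labelled over CT-labelled, in red where the adjusted p passed 0.05 and grey where it did not. OSMR (-3.84) and HNF4A (2.00) stand at the ends.

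The 4 clustered complement genes had neighbours that moved in both directions. Of 24 other protein-coding genes within 1 Mb of the cluster, 14 were tested, 7 rose and 5 fell under the OE label, a share near the 76.8% of all genes tested that passed. C1orf116, on the C4BPB side, averaged 20.9 ± 1.32 and 0.753 ± 0.0855 FPKM and was 27.8-fold higher. IL10, which encodes an anti-inflammatory cytokine, had 1156 and 0 reads and was at least 359-fold higher, and SRGAP2, which belongs to a family of close copies, was 5.73-fold higher. YOD1, also on the C4BPB side and named after its values were seen, was 4.33-fold lower. PLXNA2, beyond CD46, had 9 and 1842 reads. C1orf116, IL10 and PLXNA2 passed the filter only through the group where they were high, so the split of the 14 depends in part on the filter. CR2 and CR1, the complement receptor genes between CD55 and CD46, had 23 and 0 reads in the OE-labelled and 2 and 4 reads in the CT-labelled libraries.

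**Figure D5:**
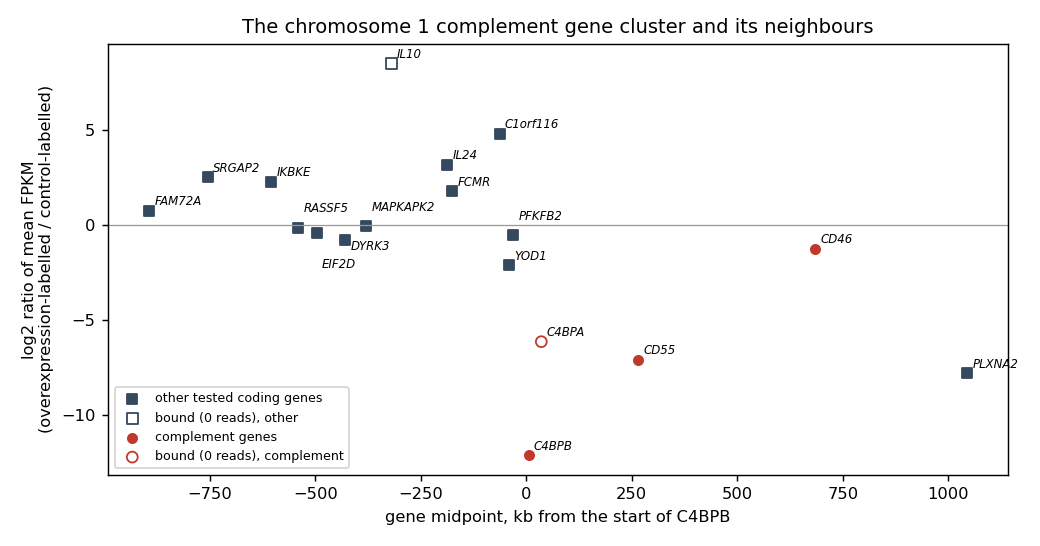
Log2 ratio of mean FPKM, OE-labelled over CT-labelled, against the distance of each gene's midpoint from the start of C4BPB, for the 4 clustered complement genes (circles) and the 14 tested neighbours (squares), open where a group had 0 reads and the value is a bound. The 4 complement genes lie between -12.1 (C4BPB) and -1.24 (CD46), and the neighbours on the C4BPB side lie on both sides of 0.

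Markers of other cell types that make complement averaged under 1 FPKM in both groups, except SERPINA1, COL1A1, ESAM and PDGFRB. The 11 leukocyte markers summed to 1.49 to 2.27 FPKM in the OE-labelled and 1.11 to 1.37 FPKM in the CT-labelled libraries, with CD3D and MS4A1 at 0 reads throughout. Of 9 hepatocyte markers, APOB and TTR had 0 reads and ALB had 2 and 1 reads, while SERPINA1 averaged 52.7 and 0.0658 FPKM. The 8 fibroblast markers summed to 1.54 to 1.67 and 4.34 to 8.22 FPKM, mostly COL1A1, with PDGFRA at 0 reads. The 7 endothelial markers summed to 1.06 to 1.48 and 36.2 to 50.7 FPKM, with ESAM at means of 0.678 and 43.5 FPKM and KDR at 0 reads. VWF, of the same list, went the other way, with 326 and 24 reads. Their part in the complement differences was not tested.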

How the data were processed

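The authors deposited one FPKM value for each gene in each of the 6 libraries, beside gene lengths. The table's name gives the unit. For aligner, counter and strand setting, the sources used here give no entry. The build is mm10 per the submitters' processing notes, a mouse build, but all 58735 human identifiers had the start and end of GENCODE release 29 on GRCh38. FPKM times length, divided by its smallest value above 0 in a library, gave whole reads (100% within 0.001 read). The deposited denominators were 1.04 to 1.05 times the read sums in the OE-labelled and 0.958 to 0.995 times in the CT-labelled libraries. Against the read sums, deposited FPKM is thus lower under the OE label, which matters for small differences such as CD59 and C1QBP. The table held 0 other columns of values per sample.

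The fit was limma 3.58.1 (R 4.3.3) with a trend on log2(FPKM + 1), group as the only term, for genes averaging 1 FPKM or more, with a two-sided adjusted p (Benjamini-Hochberg over all genes, threshold 0.05). This scale understates changes of low genes. Folds are ratios of mean FPKM. Counting intervals are exact (binomial), cover counting error only and were made with SciPy 1.17.1. Amplified reads are not independent molecules. The fit was also run on simulated data in which few genes differed, and by small folds, unlike these data. That run does not show how it behaves here.

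Members and gene lists were chosen with earlier results of these data known. Named were the 9 members, DDX39B, DCLK1, up to 4 genes past the threshold per list or neighbour set with groups apart, other complement genes at 1 FPKM in a group, the nearest gene in level and up to 2 markers per list by mean. Other names were added after their values were seen. They include C1QA, C6, CR1, CR2, C4A, C4B, CDX1, CDX2, KRT20, VWF and NFKB2. HNF4A, YOD1, PDGFRB, AL645922.1, NT5E, GPC4 and the markers at 0 reads are also among them. One listed symbol, ALPPL2, was not matched. Alternatives changed the pseudocount, the filter, the scaling, the variance model, the replicate number and the libraries used.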

Additional observations from a re-analysis of the deposited data

How the results depend on the processing

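The direction of each of the 6 better expressed members was kept in all 96 combinations of member and alternative, and 84 of them lay within 1 SD of the replicates. Changing the filter, dropping the variance trend or adding the replicate block cannot change these differences. Those combinations are therefore within 1 SD by construction and say nothing on stability. The log2 difference ranged from -6.99 to -6.29 for CD55, from -1.315 to -1.102 for CD46, from 0.263 to 0.421 for CD59, from -11.95 to -6.59 for C4BPB, from -4.88 to -3.97 for C3 and from -0.956 to -0.628 for CLU. The count of genes past the threshold was 10726, and 9794 to 11144 with a library left out. A mean of at least 5 FPKM as the filter, which tests fewer genes, gave 6218 genes, 1 other complement gene (CFD), 13 GPI anchor synthesis genes and 7 neighbours of the cluster. For other complement genes, of which 5 passed in the fit as reported, TPM gave 12, no filter on low values 18, and leaving out a library 6 to 8. Voom on the reads moved the median of all genes to 0.075, against -0.029. Replicate numbers did not pair the libraries (correlations of deviations -0.022 to 0.007), and with the replicate number as a block 10506 genes passed, 5 of them other complement genes. Depth limits CFI, CFB, C4BPA and, under the OE label, C4BPB.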

Other observations

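CFB lies in the MHC class III region, among genes that differed in both directions. Of 25 tested coding genes within 0.25 Mb of it, 5 rose and 16 fell, where 37.5% of all genes tested were higher and 39.3% lower. Their median log2 fold change was -0.48, against -0.03 over all genes. HSPA1A and HSPA1B, near-identical heat shock genes whose reads cannot be assigned with certainty, averaged 15.2 ± 0.607 and 10.9 ± 0.329 FPKM in the OE-labelled libraries and 500.0 ± 350.3 and 277.5 ± 171.7 FPKM in the CT-labelled libraries (SD, n = 3 each). CT3 was the highest for both, and without it HSPA1A was 20.3-fold lower under the OE label in place of 33.0-fold. GPSM3, a regulator of G protein signalling, had 726 and 20 reads, and LY6G6F had 119 and 0 reads and was at least 36.98-fold higher. GPSM3 and LY6G6F passed the filter only through the OE-labelled libraries.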
